A study of Mus musculus with 6 samples.

Results

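The 49 gene models described here carry no established gene name, and their read counts separated *Clec7a* knockout (KO) lungs from wild-type (WT) lungs. They were chosen from 26100 rows of a count table, of which 6168 were unnamed: new models assembled in the study, or Ensembl genes with a provisional symbol beginning with Gm or ending in Rik. A model was kept when all 3 KO libraries lay above, or all 3 below, all 3 WT libraries, the group means were at least 4-fold apart after 0.1 CPM was added to each, and the larger mean was at least 1 CPM. CPM is the count scaled by the total of its library's column. The rule gave 27 models higher in KO and 22 lower. Because the genotype contrast chose them, their differences are given as descriptions without a test.

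RNA was taken from whole lung at day 14 after bleomycin had been given into the airways of all 6 mice. Bleomycin damages DNA and injures the alveolar lining, and scarring follows. The WT group was 3 bleomycin-treated mice, and the KO group was 3 mice lacking *Clec7a* that received the same drug. *Clec7a* encodes dectin-1, a receptor for beta-glucan on myeloid cells, and the sources used here do not give strain, sex or age. Whole lung mixes cell types, so fewer cells of a type and less RNA per cell cannot be told apart.

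Provisional gene models are of several kinds. Some are protein-coding genes that have not been named, some are long noncoding RNAs, and some are read-through models, in which exons of neighbouring genes are joined in 1 transcript. An assembler adds further models wherever reads pile up outside the annotation, so a new model can be an unannotated gene, an extended transcript end or a retained intron. An overlapping model shares most of its sequence with the genes it joins, and a program that divides reads among transcripts must then split the same reads between them.

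Among the 49 models, 41 were new and 8 had Ensembl identifiers. The new models have no coordinates or sequence in the files used here, so they are described by counts and by a length derived from those counts. All 8 Ensembl members are typed as protein coding in GENCODE M21 (build GRCm38), and this follows the table itself. Of its 22036 Ensembl rows, 21914 (99.45%) were protein coding and 6 were long noncoding genes, although GENCODE M21 lists 13374 long noncoding genes. The 8 lie on 6 chromosomes, with none on chromosome 6, where *Clec7a* is, and none within 200 kb of another.

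The libraries held between 31052936 and 34451956 counts. *Clec7a* itself (chr6:129461591-129472779, minus strand) was read at 58.8, 82.4 and 195.5 CPM in WT and at 3.54, 7.01 and 2.96 CPM in KO, so each library matched its label. edgeR's quasi-likelihood test called 0 of 16633 rows at an adjusted p under 0.05 (smallest adjusted p = 0.203), and 1968 rows (11.8%) had an unadjusted p under that value. DESeq2 called 667 of 19097 rows (3.49%), 348 higher (1.82%) and 319 lower (1.67%). Of the 49 members, edgeR tested 48 and called 0, and DESeq2 gave 46 an adjusted p and called 37. The same contrast chose the members, so these counts give nothing further about them. Without the first replicates of both genotypes edgeR called 46 of 16744 rows (0.275%), 0 of them members. Of 21 marker lists, 6 were higher in KO without overlap (T, NK, B and dendritic cells, thymus and interferon response) and 3 lower (macrophage, neutrophil, smooth muscle and myofibroblast), and their part in the members' differences was not tested. The thymus list was low, at 1.21 to 2.58 CPM in WT and 4.29 to 5.12 CPM in KO, and edgeR tested 2 of its 6 genes. Marker sums also differed between libraries of 1 genotype. Secretory airway genes summed to 11690 CPM in WT replicate 1 against 926 and 309 CPM in the other WT libraries.

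The share of rows that met the rule was 0.794% among unnamed rows, split into 0.438% higher and 0.357% lower in KO. Among named genes it was 0.677%, or 135 of 19932, with 0.381% higher and 0.296% lower. New models and Gm or Rik genes differed in their shares. Among rows with a larger mean of at least 1 CPM, 41 of 826 new models (4.96%), 8 of 409 Gm or Rik genes (1.96%) and 135 of 13901 named genes (0.971%) met it. Groups that did not overlap, at any fold, were found for 21.4% of all rows at that level. These shares rest on the same contrast as the rule and give nothing further about the members.

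The shares differed with level. Between 1 and 3 CPM, 4.6% of new models, 4.42% of Gm or Rik genes and 3.29% of named genes met the rule. At 10 CPM or more the shares were 3.12%, 1.27% and 0.559%, in the same order. New models were above named genes in each of the 3 bands, with 6.93% against 1.68% between 3 and 10 CPM.

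**Figure D1:**
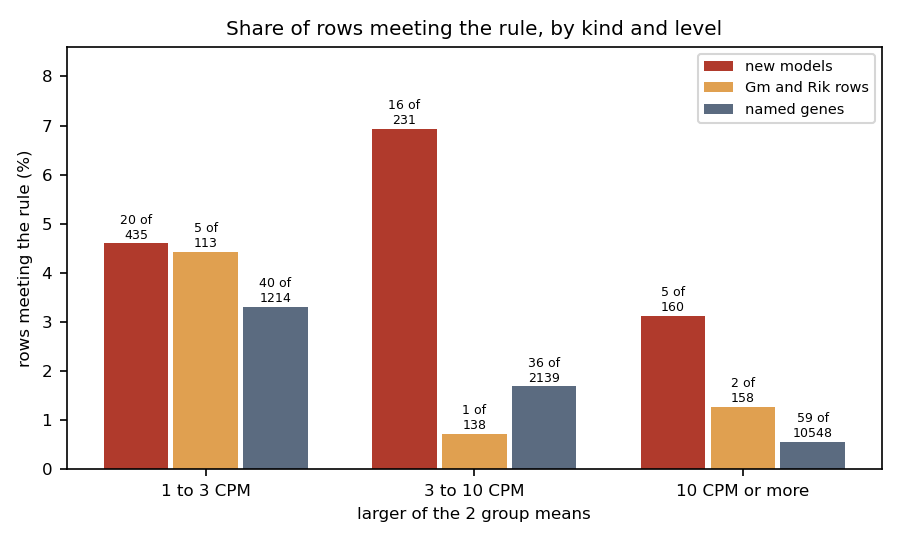
Percentage of gene rows meeting the rule (y axis) for new models, Gm or Rik genes and named genes, in bands of the larger group mean in CPM (x axis). The new models reach 6.93% between 3 and 10 CPM, where named genes are at 1.68%.

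Of the 5 Ensembl members lower in KO, 3 were read-through models, each joining exons of neighbouring named genes on 1 strand. *Gm44503* joins *Dyx1c1* to *Ccpg1*, *Gm28048* joins *Commd1* to *B3gnt2*, and *Gm20716* joins *Dpm1* to *Adnp*. *Dyx1c1* encodes a factor that assembles the dynein arms of motile cilia, and *Ccpg1* a receptor for selective autophagy of the endoplasmic reticulum. *Commd1* takes part in copper handling and NF-kB control, and *B3gnt2* adds N-acetylglucosamine in building lactosamine chains. *Dpm1* is the catalytic subunit of dolichol-phosphate mannose synthase, and *Adnp* is a chromatin-binding homeobox protein.

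The exon joint is sequence that a read-through model has and the genes it spans do not, and it is shown here for 2 of the models. Each line gives 60 bases of the annotated transcript across the joint, 5′ to 3′, with the upstream gene's exon in lower case and the downstream gene's exon in capitals.
*Gm44503* (*Dyx1c1* to *Ccpg1*): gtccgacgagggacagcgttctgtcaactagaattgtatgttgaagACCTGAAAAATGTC
*Gm28048* (*Commd1* to *B3gnt2*): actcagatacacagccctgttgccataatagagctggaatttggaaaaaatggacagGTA
The first crosses from exon 8 to exon 9 of 16, from base 72972078 to base 72997402 of chromosome 9 (plus strand). The second crosses from exon 2 to exon 3 of 3, from base 22956411 to base 22837195 of chromosome 11 (minus strand). All 60 bases of each window are annotated as coding in the model. Neither 60-base window occurs whole in a transcript of either of its own 2 genes. The joints were located by the absence of sequence across them from those transcripts, so this is not an independent result. Outside the joint little is particular to the models. Of the stretches of 31 bases in their transcripts, 98.7% for *Gm44503*, 98.9% for *Gm28048* and 99.5% for *Gm20716* also occur in a transcript of another gene.

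*Gm20716* (ENSMUSG00000093752, chr2:168180986-168230364, minus strand) had 2606, 2229 and 1849 counts in the WT libraries and 0, 1553 and 0 in the KO libraries. That is 77.7, 67.2 and 53.7 CPM in WT against 47.4 CPM in KO replicate 2 and 0 in the other KO libraries. KO replicate 2 thus lay just under the lowest WT library, far above the pair listed at 0. The means were 66.2 ± 12.0 CPM (SD, n = 3) in WT and 15.8 ± 27.3 CPM (SD, n = 3) in KO, which is 4.17-fold. Without KO replicate 1, or without KO replicate 3, it was 2.79-fold, and without WT replicate 1 it was 3.81-fold, so in each of these cases the model no longer met the rule. Without KO replicate 2 both remaining KO libraries were at 0.

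The genes that it joins were read the other way round in those same libraries. *Dpm1* had 37.0 and 28.6 CPM in KO replicates 1 and 3, where *Gm20716* was at 0, and 4.15 CPM in KO replicate 2, inside the WT range of 3.59 to 7.27 CPM. *Adnp* was at 110, 87.9 and 125 CPM in KO and at 40.3, 64.1 and 94.5 CPM in WT. Summed over the 3 rows, the locus had 125, 135 and 153 CPM in WT and 147, 139 and 154 CPM in KO. The sums overlapped, with means of 138 ± 14.2 and 147 ± 7.17 CPM (SD, n = 3 each). *Gm20716* held 62.0%, 49.8% and 35.0% of that sum in WT, 34.0% in KO replicate 2 and 0 in the rest. The read-through row therefore differed between libraries far more than the locus did.

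*Gm44503* (ENSMUSG00000089865, chr9:72958852-73016319, plus strand) had 93, 68 and 67 counts in WT and none in any KO library. Its WT level was 2.77, 2.05 and 1.95 CPM, a mean of 2.26 ± 0.450 CPM (SD, n = 3). Against a floor of 3 counts per KO library this was at least 24.05-fold lower in KO. The reads at this locus lay mostly on *Ccpg1*, at 89.9, 98.1 and 89.0 CPM in WT and 120, 111 and 113 CPM in KO. *Gm44503* made up between 2.04% and 2.96% of the summed counts of the locus in WT. The sum over *Gm44503*, *Dyx1c1* and *Ccpg1* was 95.2 ± 4.83 CPM in WT and 116 ± 4.24 CPM in KO (both SD, n = 3), 1.22-fold higher in KO without overlap, the opposite direction to the read-through model.

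*Gm28048* (ENSMUSG00000098650, chr11:22834744-22982090, minus strand) had 29, 61 and 36 counts in WT and none in KO. Its WT mean was 1.25 ± 0.519 CPM (SD, n = 3), at least 13.3-fold above the same floor in KO. Without WT replicate 2 it was under the 1 CPM minimum of the rule. *B3gnt2* and *Commd1* overlapped between the genotypes, with 57.1 to 64.3 and 59.0 to 68.2 CPM for *B3gnt2* in WT and KO. The 3 rows summed to 94.2 ± 2.42 CPM in WT and 95.4 ± 5.92 CPM in KO (both SD, n = 3), and these sums overlapped. The read-through model held between 0.892% and 1.98% of the sum in WT. The sources used here do not give how the counts of such loci were divided among overlapping rows, and its part in these differences was not tested.

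Another Ensembl member, *Gm43302*, overlaps genes of the guanylate-binding protein family, and there the whole locus differed. These proteins are GTPases induced by interferons that act against intracellular microbes. *Gm43302* (ENSMUSG00000079362, chr5:105214907-105293695, minus strand) was read at 1.94, 0 and 6.04 CPM in WT and at 14.5, 13.7 and 16.1 CPM in KO. The KO libraries were close together and the WT libraries were not, with means of 2.66 ± 3.08 and 14.8 ± 1.23 CPM (SD, n = 3 each), or 5.38-fold. The fold was 3.63 without WT replicate 2, which was at 0, and 13.9 without WT replicate 3. Every stretch of 31 bases in its transcripts occurs in another gene, 95.7% of them in *Gbp6* and 68.9% in *Gbp10*.

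*Gbp6* was at 5.19, 13.0 and 14.6 CPM in WT and at 36.7, 37.0 and 37.2 CPM in KO, 3.36-fold higher in KO. *Gbp10* had 0.685, 1.66 and 1.36 CPM in WT and 2.77, 5.34 and 3.22 CPM in KO, a 2.9-fold difference. Neither overlapped between the genotypes. The sum of the 3 rows was 14.8 ± 7.11 CPM in WT and 55.5 ± 1.39 CPM in KO (both SD, n = 3), 3.74-fold higher. Here the locus sum and the unnamed row lay on the same side, unlike at the *Ccpg1* locus. A list of 12 interferon-response genes was also higher in KO, at 363, 302 and 370 CPM in WT and 1223, 549 and 536 CPM in KO. The high sum of KO replicate 1 had no counterpart in *Gm43302* or *Gbp6*, which were close together across the KO libraries. The part of the interferon response in the *Gm43302* difference was not tested.

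**Figure D2:**
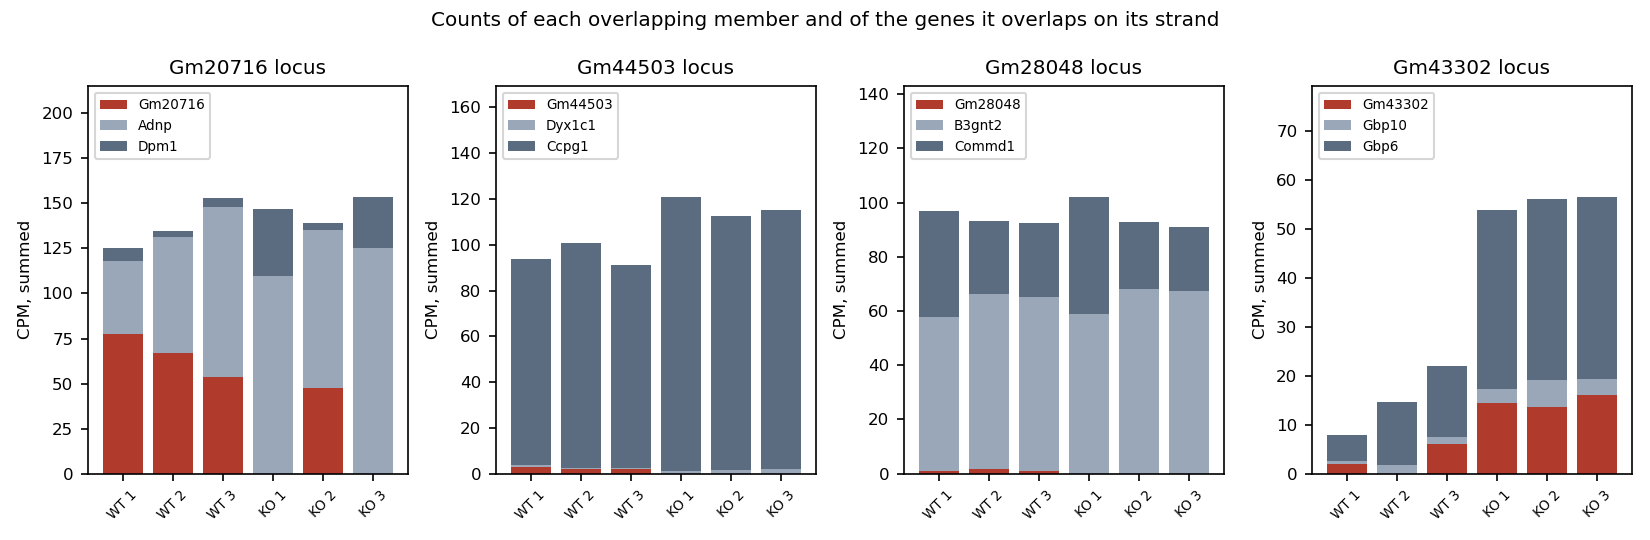
CPM (y axis) of 4 unnamed models and of the named genes they overlap on their own strand, stacked for each of the 6 libraries (x axis: WT and KO replicates 1 to 3). Overlapping genes on the other strand are left out. At *Gm20716* the stacks overlap, between 125 and 154 CPM, while the unnamed row is at 0 in 2 KO libraries; at *Gm43302* every KO stack is above every WT stack.

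Among Gm and Rik genes as a whole, shared sequence was common. Over 2097 such rows with transcripts, a median of 52.8% of the 31-base stretches occurred in another gene, and 694 rows (33.1%) were over 90% shared. At 1 CPM or more, 4 of the 80 rows that were over 90% shared met the rule (5%), against 4 of the other 328 (1.22%). A library at 0 was seen in 8 of the 80 (10%) and in 7 of the 328 (2.13%). Both counts include the members, and a low group with libraries at 0 meets the rule more easily. *Gm44503*, *Gm28048*, *Gm20716* and *Gm43302* are among the 8, and *Gm11549* and *5830411N06Rik* among the 7. These shares describe chosen and other rows together, and a link of shared sequence to zeros was not tested.

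In the other 4 Ensembl members at most 2% of the 31-base stretches occurred in another gene. *5830411N06Rik*, which RefSeq also calls *Scart2*, encodes a scavenger receptor of the cysteine-rich family known from gamma-delta T cells. It lies at chr7:140247284-140300736 on the plus strand (ENSMUSG00000054672). It was at 0, 0.543 and 0.639 CPM in WT and at 1.71, 3.51 and 1.96 CPM in KO, with means of 0.394 ± 0.344 and 2.39 ± 0.973 CPM (SD, n = 3 each), or 5.05-fold higher. Without WT replicate 1 or KO replicate 2 the fold was 3.61 or 3.92, under the rule's threshold.

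Its neighbour on the same strand, *Cd163l1* (also known as *Scart1*), is a receptor of the same family and lies 16139 bases away. *Cd163l1* had 2.33, 1.81 and 2.44 CPM in WT and 8.33, 19.3 and 5.28 CPM in KO, a 4.83-fold difference without overlap. KO replicate 2 was the highest library for both. T-cell marker genes were higher in KO too: the 6 of 8 listed genes that were found summed to 9.8, 13.2 and 19.6 CPM in WT and 46.2, 49.5 and 34.2 CPM in KO. NK-cell genes summed to 5.39 to 11.6 CPM in WT and 29.1 to 48.9 CPM in KO, B-cell genes to 20.7 to 49.1 and 72.6 to 98.0 CPM, and dendritic-cell genes to 33.4 to 83.8 and 104 to 179 CPM. The part of lymphoid and dendritic cell content in the *5830411N06Rik* difference was not tested.

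*9230104L09Rik* (ENSMUSG00000027446, chr2:148846711-148865038, minus strand) lay well apart between the groups. It had 0.805, 1.75 and 2.18 CPM in WT and 7.92, 8.11 and 9.82 CPM in KO. The means were 1.58 ± 0.702 and 8.62 ± 1.05 CPM (SD, n = 3 each), 5.2-fold, and no KO library came within 3-fold of any WT library. Beside it, 6684 bases away, lies *Cst3*, which encodes cystatin C, a secreted inhibitor of cysteine proteases. *Cst3* had 433 to 641 CPM in WT and 534 to 949 CPM in KO, so its groups overlapped where those of its neighbour did not.

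*E030018B13Rik* and *Gm11549* were lower in KO and low in all libraries. *E030018B13Rik* (ENSMUSG00000095061, chr7:63916857-63920539, plus strand) had 2.56, 1.02 and 0.726 CPM in WT and 0.155, 0.183 and 0.097 CPM in KO, a 6.28-fold difference that was 3.98-fold without WT replicate 1. It lies within *Klf13*, a zinc-finger transcription factor gene on the other strand, which overlapped between genotypes at 118 to 160 and 52.8 to 197 CPM. The strand setting of the counting was not given in the sources used here. *Gm11549* (ENSMUSG00000085007, chr3:36515057-36521813, minus strand) had 0.924, 1.39 and 1.02 CPM in WT and 0, 0.305 and 0.129 CPM in KO, 4.94-fold and 3.81-fold without KO replicate 1. Without WT replicate 2 it was 4.37-fold but under the minimum level. The nearest named gene, *Exosc9*, a subunit of the RNA exosome, lies 30793 bases away and overlapped between genotypes.

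The 17 new models lower in KO ran from 5.02-fold to 19.8-fold, and most were of low level. The one with the largest WT mean, newGene_4375, had 168 CPM in WT replicate 1 but 22.3 and 19.6 CPM in the other WT libraries, against 9.85, 7.17 and 4.77 CPM in KO. A single library thus held 80.1% of its WT sum, and the 9.52-fold difference was 2.86-fold without it. That library is also the one in which secretory airway genes summed to 11690 CPM, and it was the highest WT library for 9 of the 21 marker lists. In KO the airway sum was largest in replicate 3, at 4755 CPM, where newGene_4375 was lowest. The part of airway or other cell content in the newGene_4375 value was not tested.

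newGene_5514 was close together in WT and spread in KO, at 16.8, 15.3 and 14.5 CPM in WT and 0.249, 2.32 and 0.258 CPM in KO. Its means were 15.6 ± 1.14 and 0.941 ± 1.19 CPM (SD, n = 3 each), 15-fold apart, and KO replicate 2 stood above the other KO libraries, without which the fold was 44.3. newGene_2806 had the largest fold among new models, at 7.87, 5.85 and 3.48 CPM in WT and 0.062, 0.457 and 0.064 CPM in KO, or 19.8-fold. KO replicate 2 was again the highest KO library, and without it the fold was 35.7.

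newGene_200 repeated that order at a lower level, with 4.02, 4.43 and 3.54 CPM in WT and 0.218, 1.19 and 0.515 CPM in KO, 5.53-fold and 8.79-fold without KO replicate 2. newGene_2791 did not hold across the WT mice: it had 38.6 CPM in WT replicate 3 and 2.68 and 3.14 CPM in the others, against 0.901, 2.32 and 0.612 CPM in KO. Its 10.8-fold difference was 2.19-fold without WT replicate 3 and 17.4-fold without KO replicate 2. newGene_6681 had 12.5, 7.27 and 6.68 CPM in WT and 1.21, 2.41 and 1.42 CPM in KO, 5.02-fold and 3.98-fold without WT replicate 1.

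KO replicate 2 was the KO library nearest to WT in most lower members, and in most named genes lower by the same rule. Of the 20 lower members with any KO count, KO replicate 2 was the highest KO library in 13 (65%). Among named genes meeting the rule that was so in 37 of 59 (62.7%). Among the other rows that were lower in KO without overlap it was so in 540 of 1392 (38.8%). Summed over the 22 members, the KO libraries had 14.4, 66.5 and 9.63 CPM and the WT libraries 319, 150 and 162 CPM. The 66.5 CPM of KO replicate 2 includes the 47.4 CPM of *Gm20716*.

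**Figure D3:**
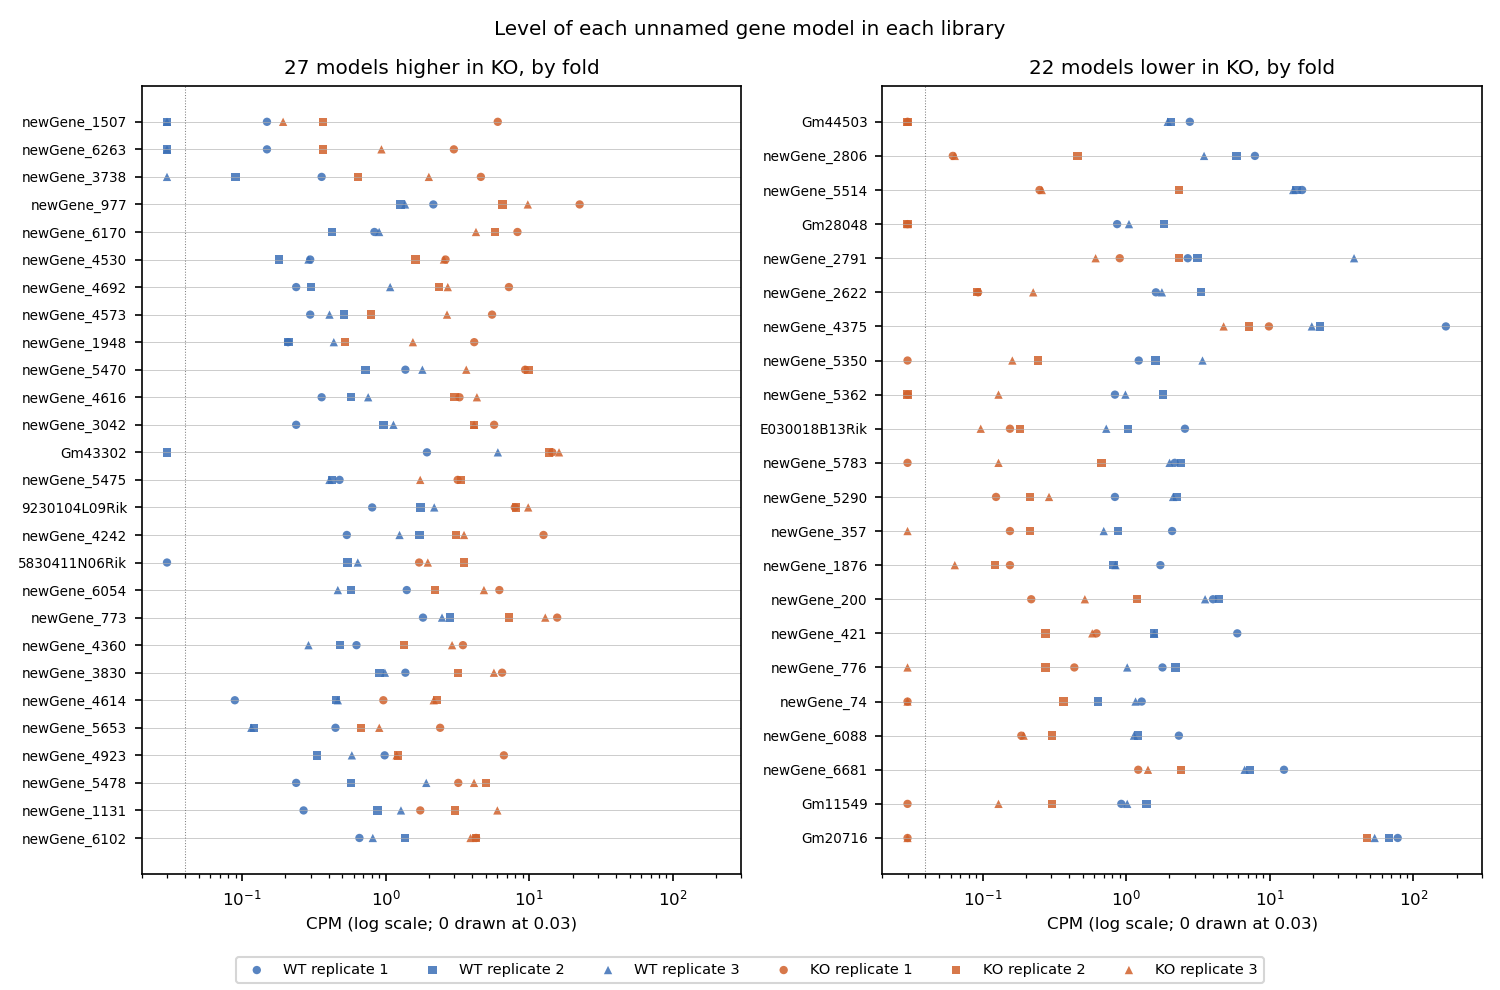
CPM of each of the 49 models (x axis, log scale, with 0 drawn at the left of the dotted line) in the 3 WT libraries (blue) and 3 KO libraries (orange), marker shape giving the replicate, with models higher and lower in KO in separate panels ordered by fold. KO replicate 1 stands far right for newGene_1507 and WT replicate 1 for newGene_4375, while in newGene_5514 the WT libraries coincide between 14.5 and 16.8 CPM.

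The 24 new models higher in KO ran from 4.06-fold to 15.3-fold, and 18 of them had a KO mean under 5 CPM. The most abundant, newGene_977, had 2.15, 1.27 and 1.36 CPM in WT and 22.4, 6.5 and 9.76 CPM in KO, with means of 1.59 ± 0.482 and 12.9 ± 8.40 CPM (SD, n = 3 each). The difference was 7.67-fold, and 4.86-fold without KO replicate 1. newGene_773 followed, at 1.82, 2.81 and 2.47 CPM in WT and 15.6, 7.23 and 12.9 CPM in KO, or 4.88-fold.

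newGene_5470 and newGene_6170 met the rule whichever single library was left out. newGene_5470 had 1.37, 0.724 and 1.8 CPM in WT and 9.35, 9.88 and 3.64 CPM in KO. newGene_6170 had 0.834, 0.422 and 0.9 CPM in WT and 8.27, 5.76 and 4.25 CPM in KO, 7.56-fold. The lowest KO library of newGene_6170 was still over 4 times the highest WT library. newGene_4530 was low in WT and had 0.298, 0.181 and 0.29 CPM in WT and 2.61, 1.62 and 2.54 CPM in KO, a 6.61-fold difference.

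The largest fold among the higher models rested on 1 library. newGene_1507 had 194, 12 and 6 counts in the KO libraries and 5, 0 and 0 in WT, so KO replicate 1 held 91.5% of its KO sum. Its 15.3-fold difference was 2.54-fold without that library, and edgeR's filter on low counts did not keep it. newGene_6263 and newGene_3738 were also highest in KO replicate 1, with 2.98, 0.366 and 0.934 CPM and 4.6, 0.64 and 2 CPM in KO. Without that library they were 5.01-fold and 5.69-fold higher, but newGene_6263 then fell short of the minimum of 1 CPM and no longer met the rule. For newGene_3738 the fold was 10.1 with all libraries and 17.3 without WT replicate 1. newGene_4242, at 12.6, 3.08 and 3.51 CPM in KO, was 2.68-fold higher without KO replicate 1.

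KO replicate 1 was the highest KO library for 18 of the 27 higher members (66.7%), and all 18 are new models. The 3 Gm or Rik members were highest in KO replicate 2 or 3. Among named genes that met the rule, KO replicate 1 was highest for 43 of 76 (56.6%). Among rows of at least 1 CPM with a higher KO mean that did not meet it, the share was 267 of 663 unnamed (40.3%) and 2839 of 7382 named rows (38.5%). In cell-type content KO replicate 1 was the highest of its group for 8 of the 21 marker lists, and another KO library was highest for the rest. It had the largest type 2 alveolar sum (18490 CPM, against 3490 and 10190 in the other KO libraries) and the largest interferon-response sum (1223 CPM, against 549 and 536). Its erythroid sum was also the largest (7128 CPM, against 1065 and 1425). The part of these differences in the counts of the new models was not tested.

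When each library was left out in turn, 11 of the 27 higher and 8 of the 22 lower models met the rule in all 6 rounds. The higher ones were *9230104L09Rik* and 10 new models, among them newGene_977, newGene_773, newGene_5470, newGene_6170, newGene_4530 and newGene_3738. The lower ones were *Gm44503* and 7 new models, among them newGene_5514, newGene_2806, newGene_200, newGene_2622 and newGene_5350. The libraries that decided most memberships were KO replicate 1, without which 10 higher models no longer met the rule, and WT replicate 1, without which 9 lower models did not. The count of higher rows stayed at 27 without WT replicate 2 or without KO replicate 1. It went from 27 to 47 without WT replicate 1, to 41 without WT replicate 3, to 42 without KO replicate 2 and to 39 without KO replicate 3. The count of lower rows went from 22 to 38 without WT replicate 3. Smaller groups are less likely to overlap, so a rise in these counts cannot be credited to the library left out.

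The new models can be given a length, because the table holds both counts and FPKM (fragments scaled to gene length and library depth). The ratio of the values in the WT libraries gave a length that was within 5% of the longest annotated transcript for 65.0% of 11824 annotated rows. Those rows had at least 100 counts in every WT library, so the share does not carry over to models with fewer counts. New members ran from 382 to 5420 bases with a median of 2417, and the other 785 new models of at least 1 CPM had a median of 2035. Those higher in KO were 1054 to 5420 bases long (median 3172, none of 24 under 1000). Those lower in KO were 382 to 5249 bases long (median 1325, 7 of 17 under 1000). The shortest was newGene_2806, at 382 bases, and per length it was at 14.7 FPKM in WT and 0.48 FPKM in KO. Lengths of the higher models rest on few WT counts, down to 5, and are the less precise ones. The longest, newGene_1507 at 5420 bases, rests on 5 counts in 1 WT library.

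**Figure D4:**
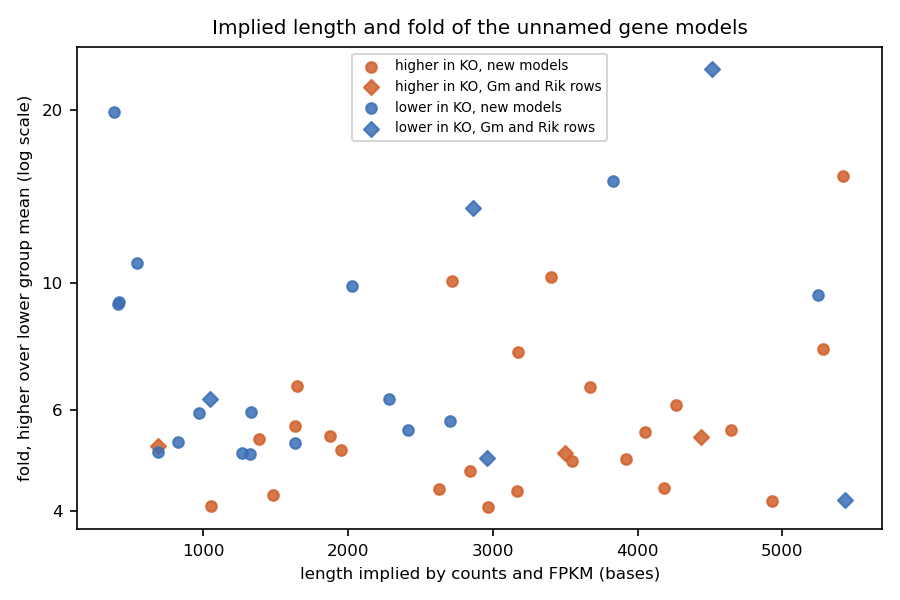
Fold between the group means (y axis, log scale, 0.1 CPM added) against the length in bases derived from counts and FPKM (x axis), 1 point per model, with new models as circles, Gm and Rik genes as diamonds, models higher in KO in orange and lower in blue. Circles under 1000 bases are all blue (7 of 17), and the shortest, newGene_2806, has the largest fold of the circles, 19.8.

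The rule's fold threshold cut through a continuous run of values. Just inside it lay newGene_6102, at 0.656, 1.36 and 0.813 CPM in WT and 4.26, 4.24 and 3.9 CPM in KO (4.06-fold), and newGene_1131 at 4.07-fold. Just outside lay newGene_4386 at 3.92-fold and newGene_5762 at 3.91-fold, both with groups that did not overlap. The 49 members together held between 0.0126% and 0.0337% of the counts in a library, while all new models held between 0.959% and 1.44%.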

How the data were processed

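RNA of whole lung from 6 mice, 3 WT and 3 KO, was extracted with TRIzol, and an NEBNext Ultra kit was used for the libraries, per the labels' protocols. The authors deposited whole-number read counts without normalization and, for the same rows, FPKM values. The submitters' processing notes name HISAT2 2.0.4, StringTie 1.3.4d and GRCm38, with no role for any. The sources used here do not give the annotation release, strand setting or handling of shared reads, so overlapping and near-identical genes are uncertain. In the FPKM table an unexplained suffix on the KO columns meant that they were used as a group only.

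CPM was computed on column totals. The members, the marker lists and the naming rule were chosen with earlier results of these data known. Models were named by that rule: the 6 of largest level and the 6 of largest fold in each direction, within Ensembl rows and new models separately, all protein-coding members, and the rows at the edge of the rule. The models newGene_4386 and newGene_5762 are outside the rule. All rows were fitted with edgeR 4.0.16 (R 4.3.3; filterByExpr, TMM, robust quasi-likelihood, 2-sided, Benjamini-Hochberg adjustment), tested on simulated data. In those simulated counts part of the 4-fold and 8-fold changes went uncalled. DESeq2 1.42.0, limma-voom (limma 3.58.1), other scalings, filters, pseudocounts, the FPKM table, the replicate number as a block and left-out libraries were alternatives. Labels give separate mice for the libraries, so a p-value reflects the spread between them. Libraries held 31052936 to 34451956 counts, and counting error matters for most members. Positions, gene types and transcripts came from GENCODE M21. Shared sequence was measured as the percentage of 31-base stretches of a gene's transcripts found in any other gene's transcripts.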

Additional observations from a re-analysis of the deposited data

How the results depend on the processing

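The rule gave 27 higher and 22 lower models. With 0.5 CPM added to each mean it gave 11 and 9, at 3-fold 47 and 39, at 8-fold 3 and 9, and with no minimum level 43 and 34. A minimum of 2 CPM left 12 lower models, and the FPKM table gave 17 higher models, 13 of them shared with the count table. Without the first replicate of both genotypes 56 higher models met the rule, of which 14 were members. Leaving out single libraries gave 27 to 47 higher and 25 to 38 lower models. With fewer libraries the condition of no overlap is easier to meet, so such rises do not measure dependence on 1 library. TMM or DESeq2 scaling, 0 added and a 0.5 CPM minimum kept both counts within 1.5 times.

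DESeq2 called 348 rows higher and 319 lower where edgeR called 0 and 0. edgeR called 18 higher and 28 lower without the first replicate of both genotypes (0.275% of 16744 rows), none of them a member. Leaving out single libraries gave 0 to 1 higher and 0 to 2 lower calls: 1 higher without KO replicate 1, and 1 higher and 2 lower without KO replicate 2. With the replicate number as a block edgeR called 0 higher and 0 lower. Correlations of deviations between same-numbered libraries were 0.351, 0.35 and -0.0988, and not every library correlated best with its own number. With so few libraries these correlations cannot decide whether the numbers pair the samples. limma-voom, other scalings and other filters also gave 0. For *Clec7a* and 25 named members, 40 of 364 fold changes under an alternative moved by more than the larger SD. Of these 40, 20 were on log2 FPKM with 1 added and 11 were with libraries left out. The rule fixes the direction of members, so their sign says nothing about stability. The cause of these shifts was not tested. Larger means of 1 to 3 CPM limit 25 of the 49 members.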
